A study of Mus musculus with 23 samples.

Results

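The genes described here are the secreted Wnt ligands, their Frizzled receptors and 3 families of secreted modulators of the pathway, as measured in mouse hearts. Members were all genes whose array annotation symbol begins with Wnt, Fzd, Sfrp, Rspo or Dkk followed by a digit, with probes averaged per gene. This gave 42 of 21892 named genes: 19 Wnt ligands, 11 genes with an Fzd symbol, 4 secreted frizzled-related proteins (Sfrp), 4 R-spondins (Rspo) and 4 Dickkopf proteins (Dkk). Of the Fzd symbols, Fzd10os is a long noncoding RNA and not a receptor. The hearts came from 23 male mice, 1 mouse per 2-colour array, and total RNA was taken from the ventricles. In MR-Cardio mice, cardiomyocytes overexpress the mineralocorticoid receptor, a nuclear receptor for the steroid hormone aldosterone, while control mice carried no transgene. Untreated hearts came from 5 control and 7 MR-Cardio mice, aldosterone-treated hearts from 5 control and 6 MR-Cardio mice, and the labelled duration was 7 days. The sources used here do not name the promoter that drives the transgene, the number of transgenic lines, the age of the mice or the aldosterone dose. The design asks which cardiac genes the receptor changes and which ones aldosterone regulates in each genotype.

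Wnt proteins are lipid-modified ligands that bind Frizzled receptors at the cell surface. With the co-receptors Lrp5 and Lrp6 they stabilise beta-catenin, which then activates genes in the nucleus, and through other co-receptors they act on planar cell polarity and calcium signalling. Sfrp proteins bind Wnt ligands outside the cell, Dickkopf proteins of the Dkk1 type block the co-receptors, and R-spondins protect Frizzled receptors from removal at the membrane and so strengthen the signal. The pathway is needed for heart formation, is little active in the healthy adult heart and is known to change in cardiac injury and fibrosis.

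Each value is a log2 ratio that sets heart RNA against a common RNA pool of spleen, kidney, heart, brain and liver, so 0 means as much as in the pool and 1 unit is a doubling. A ratio does not give the level of one gene relative to another. In the Wnt family the mean ratio over all arrays ran from -4.31 for Wnt10a to 2.20 for Wnt8a, and 8 of 19 ligands lay above 0. Receptors ran from -3.66 (Fzd10) to 1.67 (Fzd6), with 8 of 11 genes above 0. The R-spondins ran from -3.56 (Rspo3) to 1.78 (Rspo4), Dickkopf genes from -3.90 (Dkk2) to 0.09 (Dkk4) and Sfrp genes from -0.47 (Sfrp5) to -0.01 (Sfrp2). For the modulators these overall means hide different group means, not all of which passed the test between genotypes. Rspo4 averaged -0.29 in untreated controls, 0.09 in treated controls, 2.31 in untreated MR-Cardio hearts and 4.30 in treated ones. Among the Sfrp genes, Sfrp2 was the lowest in untreated controls (-1.71) and the highest in treated MR-Cardio hearts (1.37). Dkk4 averaged -0.20 in untreated controls and 0.30 in untreated MR-Cardio hearts. The latter ranged from -1.33 to 1.31, the groups overlapped, and the difference did not pass (adjusted p = 0.444 in limma). The signal over background of these probes is unknown here, so ratios of genes far below the pool may rest on weak signals. A ratio near 0 may also come from weak signals in both heart and pool, which was not tested. For example, Dkk1, Wnt3a, Fzd10os and Dkk4 had -0.243, -0.249, -0.225 and -0.222 in treated MR-Cardio mouse 6. In untreated MR-Cardio mouse 7 they had -0.213, -0.213, -0.193 and 1.31.

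The median ratio of an array was -0.04 to 0.12, and arrays correlated over all probes with r of at least 0.855. Of 10 cardiomyocyte markers, 10 had a mean ratio above 0. Nr3c2, the mineralocorticoid receptor gene and the check of the genotype labels, was higher in MR-Cardio hearts by 2.78 ± 0.34 (SE) without treatment and by 3.75 ± 0.35 with aldosterone, and no MR-Cardio heart overlapped the controls. Some properties of the arrays followed genotype. The slope of 10 spike-in control probes, relative to the mean of all arrays, was 0.964 to 0.982 on the 10 control arrays and 1.003 to 1.029 on the 13 MR-Cardio arrays. Markers of liver, a reference tissue, fell in 10 of 10 cases in both genotype comparisons, with means per mouse of -4.50 to -4.28 in controls and -5.73 to -5.12 in MR-Cardio mice. Of the other reference tissues, 5 and 6 of 9 kidney markers, 4 and 5 of 9 brain markers and 4 and 2 of 8 spleen and blood markers fell, untreated and with aldosterone. In the genotype differences, an array difference that follows genotype and genotype itself cannot be told apart. The 9 genotype calls below all passed with each array divided by its slope. With slopes of 0.964 to 1.029 this division changes a ratio little, so it cannot separate the arrays from genotype. The mean spike-in ratio of an array relative to all arrays (its offset) was also low in untreated MR-Cardio mice 3, 4 and 7 (-0.38, -0.50 and -0.34) and in treated MR-Cardio mice 4 and 6 (-0.48 and -0.47). Mice are named by their sample number within the group. All adjusted p-values are from limma, adjusted by Benjamini-Hochberg over 21892 genes, with a threshold of 0.05. In whole ventricle, fewer cells of a type and less RNA per cell cannot be told apart.

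Between untreated genotypes, 4 of 42 members rose in MR-Cardio hearts and none fell. They were the R-spondin Rspo4, the receptor Fzd1, the Wnt antagonist Sfrp4 and the ligand Wnt10b. Of all genes 13.6% were called in this comparison, 5.79% higher and 7.82% lower, so 4 of 42 members called higher stand against 5.79%, and 4 of 42 called in either direction against 13.6%. At an unadjusted p under 0.05 there were 18 of 42 members, against 27.6% of all genes. The median difference of the members was 0.07, against -0.01 for all genes. Between treated genotypes, 3 members were higher in MR-Cardio hearts (Rspo4, Fzd1 and the Dickkopf gene Dkk2). The ligand Wnt5a and the receptor Fzd6, 2 members, were lower, which makes 5 of 42 in all. The share over all genes was 25.1%, with 10.7% higher and 14.4% lower, and the medians were 0.06 for members and -0.04 for all genes. At an unadjusted p under 0.05 there were 11 members, against 36.2% of all genes. The 2 genotype comparisons share no mice. The difference had the same sign in both for 30 of 42 members (71.4%), against 76.3% of all genes.

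**Figure D1:**
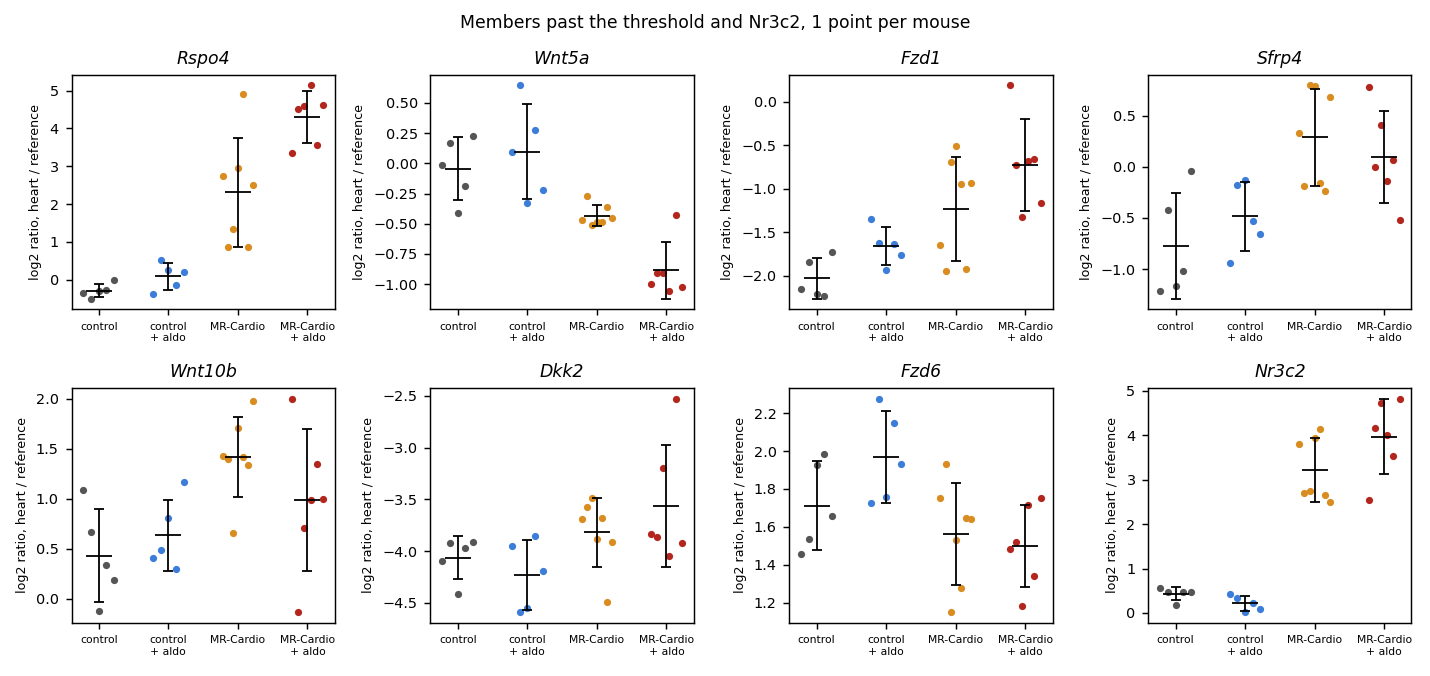
Log2 ratio of heart over the reference pool (vertical axes) for the 7 members called in any comparison and for Nr3c2, by group, with 1 point per mouse and the mean with its SD. The 13 MR-Cardio values of Rspo4 lie above the 10 control values, and treated MR-Cardio hearts lie below all treated controls for Wnt5a.

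Rspo4 had the largest difference of the 42 members in both genotype comparisons. In untreated controls its ratios were -0.36, -0.50, -0.31, -0.28 and -0.02. Untreated MR-Cardio hearts ranged from 0.86 to 4.90 with a median of 2.51 (values 2.73, 0.86, 1.34, 2.96, 4.90, 0.87 and 2.51 for mice 1 to 7). The groups did not overlap, and the MR-Cardio hearts were widely spread. The difference was 2.60 ± 0.50 (SE, adjusted p = 0.00155), a 6.08-fold rise in the ratio. The mean Rspo4 ratio of untreated controls, -0.29, lay close to those of Wnt3a (-0.23) and Fzd10os (-0.22). In treated controls the 3 means were 0.09, -0.14 and -0.32. Whether Rspo4 was detected in control hearts is unknown and was not tested. If its signal there was weak, the fold rises over controls, also with aldosterone, depend on it. Rspo4 was the 1 member of 42 whose untreated groups did not overlap, against 6.97% of all genes.

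With aldosterone, control hearts had Rspo4 ratios of -0.38, 0.53, 0.26, -0.13 and 0.20. MR-Cardio hearts had 3.36, 4.52, 4.60, 5.14, 3.55 and 4.61 for mice 1 to 6. The lowest MR-Cardio heart lay far above the highest control. The difference was 4.20 ± 0.52 (SE, adjusted p = 8.67e-06), an 18.4-fold rise in the ratio. Between treated groups, 3 of 42 members did not overlap, against 16.1% of all genes: Rspo4, Fzd1 and Wnt5a.

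**Figure D2:**
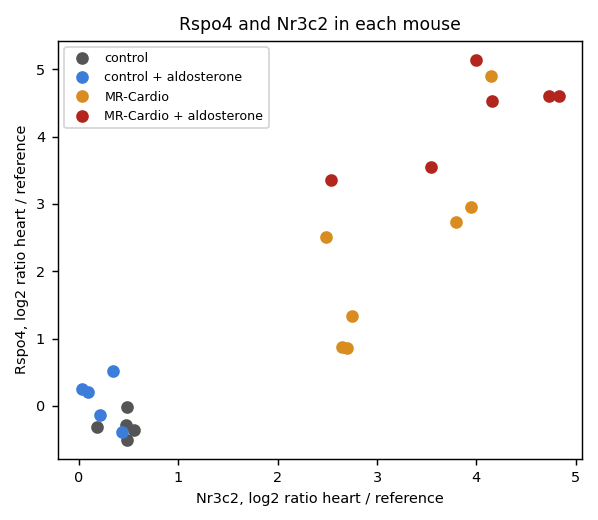
Rspo4 log2 ratio (vertical axis) against the Nr3c2 log2 ratio (horizontal axis), 1 point per mouse, coloured by group. Controls lie near 0 on both axes, and the untreated MR-Cardio mice with Nr3c2 near 4 are mice 1, 4 and 5.

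Within untreated MR-Cardio hearts, Nr3c2 ratios fell into 2 separate clusters, so no correlation over the group is given. Mice 1, 4 and 5 had Nr3c2 ratios of 3.80, 3.95 and 4.15 and Rspo4 ratios of 2.73, 2.96 and 4.90. The other 4 mice had Nr3c2 between 2.49 and 2.74 and Rspo4 between 0.86 and 2.51. Within treated MR-Cardio hearts (n = 6), 7 relations to Nr3c2 were computed, 1 for each called member. For Rspo4, Pearson's r was 0.760 (exact permutation p = 0.0625, adjusted p = 0.219) and Spearman's rho 0.657 (exact permutation p = 0.175, adjusted p = 0.423). Without the 2 mice farthest from the median Nr3c2 ratio, r was 0.542 (n = 4). Fzd1 ran the other way, with r = -0.971 (exact permutation p = 0.0056, adjusted p = 0.0389) and rho = -0.943 (exact permutation p = 0.0167, adjusted p = 0.117), and r = -0.888 without the 2 farthest mice. The adjusted rho did not pass. The other 5 relations had adjusted p = 0.270 to 0.860 for r. Over these 6 mice, Nr3c2 and the mean of 12 fibroblast markers for the most part ran opposite ways. Mouse 1 had the lowest Nr3c2 ratio (2.54) and the highest marker mean (3.25). Mouse 6 had the highest Nr3c2 ratio (4.83) and the lowest marker mean (1.50). A relation of Fzd1 to Nr3c2 and one to these markers cannot be told apart here, and the latter was not tested.

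The upstream sequences of 2 called members are shown because Fzd1 rose in both genotype comparisons and Dkk2 is the called member whose window holds a searched motif. They are the 250 bases before the start used in a RefSeq promoter table, build GRCm38.p6. Fzd1 lies at chr5:4758217-4758466 (minus strand), just before its gene record, and Dkk2 at chr3:132085042-132085291 (plus strand), where the gene record begins at 132085266, inside the end of the window. The Rspo4 window of that table lies within the Rspo4 gene record, which begins farther upstream, and is not shown. Neither it nor the window of the called member Wnt10b held any of the searched motifs. Capitals mark a match to AGAACA, the half-site of the element bound by corticosteroid receptors, on either strand.
Fzd1: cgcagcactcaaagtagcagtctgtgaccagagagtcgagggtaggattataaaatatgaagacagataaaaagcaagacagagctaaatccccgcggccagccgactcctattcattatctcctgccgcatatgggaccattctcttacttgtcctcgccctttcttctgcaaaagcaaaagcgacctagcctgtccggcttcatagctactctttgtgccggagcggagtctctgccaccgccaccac
Dkk2: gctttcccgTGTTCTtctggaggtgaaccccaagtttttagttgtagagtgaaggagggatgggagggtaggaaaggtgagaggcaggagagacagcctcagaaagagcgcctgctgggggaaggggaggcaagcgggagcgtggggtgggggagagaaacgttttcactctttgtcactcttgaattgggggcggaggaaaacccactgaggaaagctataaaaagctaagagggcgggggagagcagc
Windows were found for 27 of 42 members, 30 windows in all. A member counts once if any of its windows held a motif, while the shares of all windows count each window. By window, the half-site was in 3, CTTTGAA in 1 and CTTTGAT in 2 of the 30. The full element, AGAACA and its reverse complement 3 bases apart, was in 0 of the 27 members and in 0.00913% of 32851 promoter windows. The half-site, which the full element contains, was in 3 of 27 members (Dkk2, Wnt5b and Wnt8b) and in 16.1% of all windows, and Dkk2 carried it 241 bases before the start used. The beta-catenin partner sites CTTTGAA (Dkk1) and CTTTGAT (Wnt11 and Wnt5b) were in 1 and 2 of the 27 members, against 4.46% and 3.21% of all windows. Both strands were searched. In Fzd1 none of these letters was found in this window.

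Among the ligands, Wnt5a, which acts mainly through the planar polarity and calcium branches, was lower in treated MR-Cardio hearts than in treated controls. Treated controls had Wnt5a ratios of 0.10, 0.65, -0.33, 0.28 and -0.22. Treated MR-Cardio hearts had -0.999, -0.91, -0.90, -1.06, -0.43 and -1.02. All treated MR-Cardio hearts lay below all treated controls, mouse 5 by the smallest margin. The difference was -0.98 ± 0.15 (SE, adjusted p = 7.92e-05). Without treatment, MR-Cardio hearts lay in a narrow range of -0.51 to -0.27 with a median of -0.47, against -0.41 to 0.22 in controls, so the groups overlapped. That difference of -0.39 ± 0.15 did not pass (adjusted p = 0.0789). The Wnt5a difference with aldosterone and the Rspo4 differences between genotypes kept their call in each alternative processing tried.

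Wnt10b, a ligand best known for action through beta-catenin, rose in untreated MR-Cardio hearts. Untreated controls had Wnt10b ratios of 1.09, 0.67, -0.12, 0.34 and 0.19. Untreated MR-Cardio hearts ranged from 0.66 to 1.97 with a median of 1.42. All but mouse 3 lay above the highest control. The difference was 0.98 ± 0.28 (SE, adjusted p = 0.0233). This call was lost without controls 3, 4 or 5 or MR-Cardio mouse 7, with differences of 0.85 to 0.96 and adjusted p = 0.0517 to 0.0744. With aldosterone the difference was 0.35, with MR-Cardio hearts from -0.13 to 2.00 around the controls' 0.30 to 1.17.

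Of the other 17 ligands, none passed in either genotype comparison. Wnt8a, with a difference of -1.03 ± 0.41 (SE, adjusted p = 0.0973) untreated and -0.14 with aldosterone, and Wnt11, with 0.31 ± 0.13 (adjusted p = 0.128) and -0.15 ± 0.14, are examples. For Wnt8b, the 2 probes ran opposite ways: one fell by 1.73 on the log2 scale untreated (adjusted p = 0.00722 among probes), while the other differed by 0.26 (adjusted p = 0.709), and their correlation over the arrays was -0.06. With aldosterone those probes differed by -0.92 (adjusted p = 0.122) and 1.08 (adjusted p = 0.0438). The averaged ratio of Wnt8b thus stands for no single probe, and that of Wnt1, whose probes had a correlation of -0.49, likewise.

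**Figure D3:**
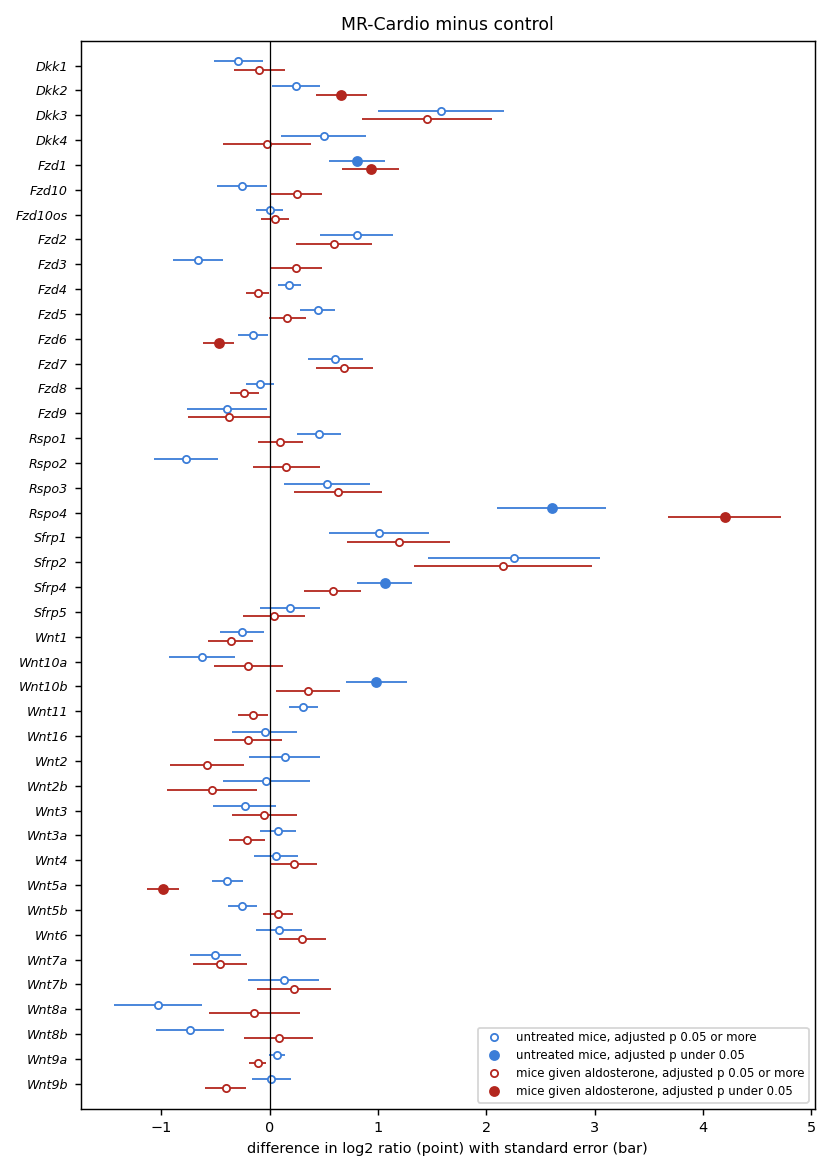
Difference in log2 ratio between MR-Cardio and control hearts (horizontal axis) for each of the 42 members, untreated (blue) and with aldosterone (red), with bars of 1 SE and filled points for adjusted p under 0.05. Rspo4 stands farthest to the right, with differences of 2.60 and 4.20, and Wnt5a is the called member farthest to the left, with -0.98 with aldosterone.

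Among the receptors, Fzd1, a membrane receptor that binds Wnt ligands through a cysteine-rich domain, rose in both genotype comparisons. Untreated controls had Fzd1 ratios of -2.15, -1.84, -2.21, -2.23 and -1.73. Untreated MR-Cardio hearts ranged from -1.94 to -0.51 with a median of -0.95, and mice 3, 4, 5 and 7 were the highest. Mice 1, 3, 4, 5 and 7 lay above the controls, while mice 2 and 6 lay within their range. The difference was 0.80 ± 0.26 (SE, adjusted p = 0.0407). It did not pass without controls 1, 2, 3 or 4 or MR-Cardio mice 3, 4, 5 or 7 (0.68 to 0.85, adjusted p = 0.05 to 0.0930), and it was 0.42 (adjusted p = 0.419) without the arrays of low spike-in offset.

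With aldosterone, control hearts had Fzd1 ratios of -1.35, -1.62, -1.94, -1.63 and -1.76. MR-Cardio hearts had 0.19, -0.73, -1.33, -0.68, -0.65 and -1.17. The groups did not overlap, although MR-Cardio mouse 3 and control 1 lay next to each other. The difference was 0.93 ± 0.27 (SE, adjusted p = 0.0130). With the spike-in offset as a covariate it was 0.75 (adjusted p = 0.0623).

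Fzd6, a receptor known for planar cell polarity, was lower in treated MR-Cardio hearts than in treated controls. Treated controls had Fzd6 ratios of 1.73, 2.28, 1.76, 2.15 and 1.93. Treated MR-Cardio hearts had 1.48, 1.52, 1.19, 1.71, 1.34 and 1.75. The groups overlapped only where the highest MR-Cardio heart, mouse 6, exceeded the lowest control. The difference was -0.47 ± 0.15 (SE, adjusted p = 0.0209), and -0.39 and -0.42 without controls 2 and 4 (adjusted p = 0.0696 and 0.0567). Without treatment it was -0.15 with overlapping groups. The aldosterone difference of Fzd6 was -0.063 ± 0.133 (SE, adjusted p = 0.89) in MR-Cardio hearts and 0.255 ± 0.151 in controls. Neither passed.

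The other receptors did not pass as averages, but Fzd2 and Fzd7 have 2 probes each that did not move alike. For Fzd2, another ligand receptor, probe 1 rose by 0.79 ± 0.20 untreated (adjusted p = 0.0132 among probes) and by 1.18 ± 0.21 with aldosterone (adjusted p = 0.000362). Probe 2 differed by 0.82 ± 0.58 (adjusted p = 0.385) and 0.01 ± 0.60 (adjusted p = 0.993). Averaged over probes, Fzd2 differed by 0.80 ± 0.34 untreated (adjusted p = 0.122) and 0.59 ± 0.35 with aldosterone (adjusted p = 0.235), so its result depends on the probe. For Fzd7, probe 1 differed by 0.81 ± 0.43 untreated (adjusted p = 0.228 among probes) and 1.19 ± 0.44 with aldosterone (adjusted p = 0.0546). Probe 2 rose by 0.40 ± 0.12 untreated (adjusted p = 0.0320) and differed by 0.19 ± 0.13 with aldosterone (adjusted p = 0.300). Fzd4, Fzd5, Fzd8, Fzd9 and Fzd10 did not pass, and Fzd10os differed by 0.00 and 0.05. Fzd3 had a difference of -0.66 ± 0.23 untreated (adjusted p = 0.0627) and 0.24 ± 0.24 with aldosterone (adjusted p = 0.506).

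Among the antagonists, Sfrp4 rose in untreated MR-Cardio hearts. Untreated controls had Sfrp4 ratios of -1.21, -0.42, -1.16, -1.02 and -0.04. Untreated MR-Cardio hearts ranged from -0.24 to 0.80 with a median of 0.33. Mice 1, 3, 4 and 7 lay above all controls, and mice 2, 5 and 6 lay within their upper range. The difference was 1.06 ± 0.25 (SE, adjusted p = 0.00787), and 0.71 (adjusted p = 0.120) without the arrays of low spike-in offset. With aldosterone it was 0.58 ± 0.26 (adjusted p = 0.112).

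**Figure D4:**
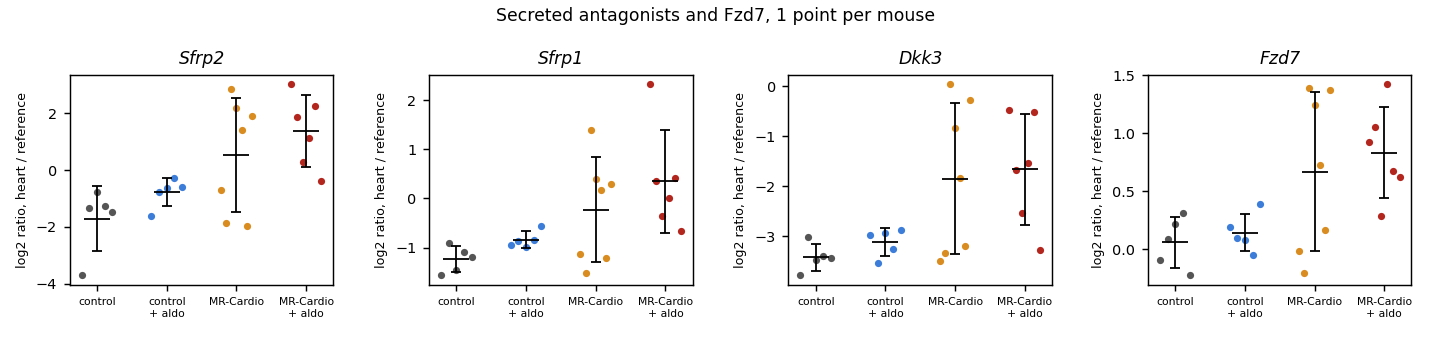
Log2 ratio of heart over the reference pool (vertical axes) of Sfrp2, Sfrp1, Dkk3 and the receptor Fzd7 by group, with 1 point per mouse and the mean with its SD. Untreated MR-Cardio mice split into a high and a low set for each gene, which gives the long error bars.

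Sfrp2, Sfrp1, Dkk3 and Fzd7 did not pass between genotypes as averages over probes. They are described for their wide spread among MR-Cardio mice and were chosen after their values were seen. Sfrp2 ratios in untreated MR-Cardio mice 1 to 7 were -0.69, -1.87, 2.86, 2.17, 1.42, -1.95 and 1.91, against -3.69 to -0.75 in controls. Mice 3, 4, 5 and 7 were high and mice 1, 2 and 6 were near the controls. Its difference was 2.26 ± 0.79 (SE, adjusted p = 0.0626) untreated and 2.15 ± 0.82 (adjusted p = 0.0591) with aldosterone. Dkk3, a divergent Dickkopf family member, was split the same way, with 0.05, -0.82, -1.84 and -0.27 in mice 3, 4, 5 and 7 and -3.50 to -3.19 in mice 1, 2 and 6. Its differences were 1.58 ± 0.58 (adjusted p = 0.0744) and 1.45 (adjusted p = 0.0827). Sfrp1 differed by 1.01 (adjusted p = 0.153) and 1.19 (adjusted p = 0.0712), and Fzd7 by 0.61 (adjusted p = 0.118) and 0.69 (adjusted p = 0.0584). Some of these calls changed when 1 mouse was left out, though for Sfrp1 untreated none of 12 such fits did so. With aldosterone, Sfrp2, Sfrp1 and Dkk3 each passed without MR-Cardio mouse 6 (2.50, 1.39 and 1.77, adjusted p = 0.0337, 0.0404 and 0.0336), and Fzd7 passed without MR-Cardio mouse 3 (0.80, adjusted p = 0.0351). Untreated, Sfrp2 passed without MR-Cardio mouse 2 or 6 (2.66 and 2.67, adjusted p = 0.0208 and 0.0207), Fzd7 without mouse 2 (0.75, adjusted p = 0.0341), and Dkk3 without mouse 1, 2 or 6 (1.81 to 1.86, adjusted p = 0.0343 to 0.0406). With aldosterone, Fzd7 also passed in 5, Sfrp2 in 4, Dkk3 in 3 and Sfrp1 in 1 of the alternatives other than leaving out 1 mouse.

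The same mice carried high fibroblast marker ratios. The mean of 12 fibroblast markers was 3.09, 2.72, 2.06 and 2.66 in untreated MR-Cardio mice 3, 4, 5 and 7, and 1.41, 1.21 and 1.12 in mice 1, 2 and 6. It was 0.83 to 1.48 in untreated controls. Treated MR-Cardio hearts had 1.50 to 3.25, against 1.13 to 1.66 in treated controls. All 12 markers had a mean ratio above 0 over all arrays. Of them, 3 rose untreated and 4 with aldosterone, beside 13.6% and 25.1% of all genes called. Their median differences were 1.00 and 0.79, against -0.01 and -0.04 over all genes. The part of these markers in the Sfrp, Dkk3, Fzd1 and Fzd7 values was not tested. The arrays of low spike-in offset include mice 3, 4 and 7. Without these arrays, the Sfrp2 difference was 0.93 untreated (adjusted p = 0.533) and 2.65 with aldosterone (adjusted p = 0.0128). Over all alternatives, the untreated difference ran from 0.46 to 1.86 for Dkk3, 0.32 to 1.23 for Sfrp1 and 0.11 to 0.81 for Fzd7. The highest adjusted p-values in limma were 0.583, 0.743 and 0.814.

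Of the other modulators, Dkk2, which blocks or activates the pathway depending on its partner, was higher in treated MR-Cardio hearts than in treated controls. Treated controls had Dkk2 ratios of -3.95, -4.59, -4.56, -3.85 and -4.19. Treated MR-Cardio hearts had -3.83, -3.87, -3.20, -4.05, -2.53 and -3.92. Mice 1, 3 and 5 lay above every treated control, and the groups overlapped. The difference was 0.66 ± 0.23 (SE, adjusted p = 0.0413). It did not pass without controls 2, 3 or 5 or MR-Cardio mice 3 or 5 (0.45 to 0.67, adjusted p = 0.0639 to 0.109) or with the treated groups alone in the fit (adjusted p = 0.111). Untreated, Dkk2 differed by 0.25. Dkk1, the co-receptor blocker, differed by -0.29 and -0.09, and neither passed. Of the remaining R-spondins, Rspo1 (0.45 ± 0.20, adjusted p = 0.143), Rspo2 (-0.77 ± 0.30, adjusted p = 0.0859) and Rspo3 (0.53 ± 0.39, adjusted p = 0.413) did not pass untreated, nor with aldosterone (0.10, 0.16 and 0.63). Sfrp5 differed by 0.19 and 0.04.

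Aldosterone alone called no member in control hearts. No gene of 21892 passed in limma with all groups in the fit (0 of all genes, 0%). At an unadjusted p under 0.05 there was 1 member, Wnt8b, and 4.73% of all genes. Wnt8b had a difference of -0.77 ± 0.34 (SE, unadjusted p = 0.0328, adjusted p = 1), with its highest ratio, 2.54, in untreated control 4. It was -0.38 without that mouse. Rspo2 followed with -0.63, and -0.37 without untreated control 3, then Fzd10 with -0.45, and -0.30 without that same control. In these genes the groups overlapped. With the control groups alone in the fit, 8 of 21892 genes passed, none of them a member.

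In MR-Cardio hearts, aldosterone called 1 of 42 members, Rspo4, against 1.43% of all genes (0.95% higher and 0.484% lower). At an unadjusted p under 0.05 there were 7 members, against 14.2% of all genes. Rspo4 was higher by 1.99 ± 0.48 (SE, adjusted p = 0.0373), a 3.96-fold rise. The lowest treated heart had 3.36, and of the untreated hearts mouse 5, with 4.90, exceeded it, so the groups overlapped through 1 mouse. Leaving out 1 mouse ended this call in 9 of 13 fits, those without untreated mice 1, 2, 3, 6 or 7 or treated mice 2, 3, 4 or 6 (1.74 to 2.06, adjusted p = 0.0565 to 0.108). The call also ended with the MR-Cardio groups alone in the fit, where 0 of 21892 genes passed, against 314 with all groups. In the control genotype Rspo4 differed by 0.39 ± 0.54 with aldosterone (adjusted p = 1). These SEs rest on a spread pooled over all groups, although the groups differed in spread. The SD of Rspo4 was 0.17 in untreated and 0.35 in treated controls. In MR-Cardio hearts it was 1.44 untreated and 0.69 treated. The difference between genotypes in the aldosterone effect was 1.60 ± 0.73 (unadjusted p = 0.0387, adjusted p = 0.901) and did not pass.

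**Figure D5:**
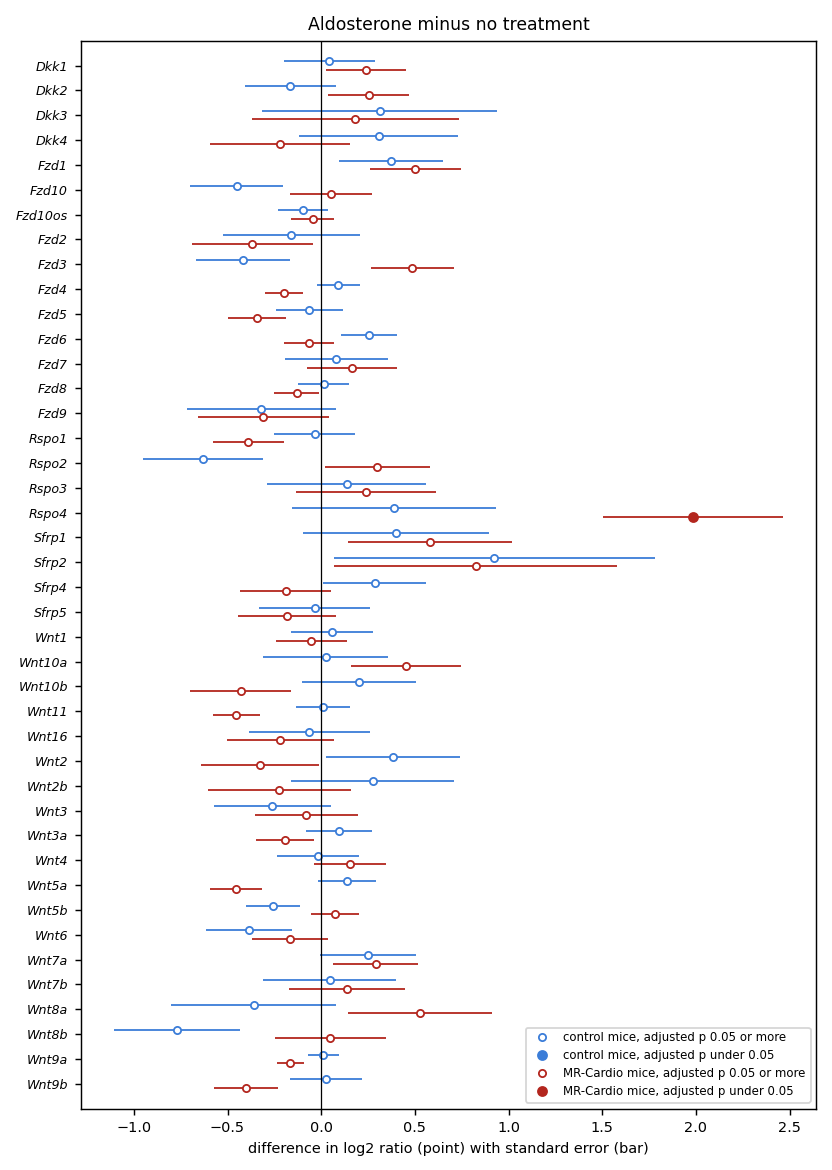
Difference in log2 ratio between aldosterone-treated and untreated hearts (horizontal axis) for each of the 42 members, in control (blue) and MR-Cardio (red) mice, with bars of 1 SE and filled points for adjusted p under 0.05. Rspo4 in MR-Cardio hearts is the 1 filled point, at 1.99.

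The next smallest p-values in MR-Cardio hearts were those of Wnt11, which acts in heart and planar polarity signalling, and Wnt5a. Wnt11 had ratios of 2.19, 2.27, 1.85, 1.82, 1.95, 2.12 and 2.25 in untreated and 2.00, 1.26, 1.76, 1.44, 1.49 and 1.73 in treated MR-Cardio hearts. The treated values were lower, and only mouse 1 of that group lay within the untreated range. The difference was -0.45 ± 0.13 (SE, adjusted p = 0.0768). Wnt5a differed by -0.45 ± 0.14 (adjusted p = 0.106), with the treated group below the untreated one except for mouse 5. Without treated mouse 1, Wnt11 passed (-0.53, adjusted p = 0.0481), and without treated mouse 5 Wnt5a did (-0.55, adjusted p = 0.0393). No interaction passed in limma for any of 21892 genes (0%), and at an unadjusted p under 0.05 there were 5 members, against 5.47% of all genes. The smallest p-values in limma were those of Wnt5a (-0.59 ± 0.21), Fzd3 (0.90 ± 0.33) and Wnt11 (-0.47 ± 0.19), each with adjusted p = 0.876. For the aldosterone effect, the sign was the same in the 2 genotypes for 20 of 42 members (47.6%), against 56.2% of all genes.

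The rest of the Wnt pathway was read from lists of genes by role. Unless said otherwise, list differences are MR-Cardio minus control hearts. The words untreated and with aldosterone name the mice compared, so rose and fell describe genotypes and not an effect of treatment. Of all genes, 13.6% were called untreated and 25.1% with aldosterone, with medians over all genes of -0.01 and -0.04. In the secretion of ligands, 1 of 4 measured genes rose untreated and, with aldosterone, 2 rose and 1 fell. Wls, which carries Wnt ligands to the cell surface, rose by 0.53 ± 0.11 (SE, adjusted p = 0.00324) untreated and by 0.72 ± 0.12 (adjusted p = 0.000128) with aldosterone. Porcn, which attaches the lipid to Wnt ligands, rose by 0.82 ± 0.14 with aldosterone (adjusted p = 0.000211) and differed by 0.39 untreated (adjusted p = 0.0548). Trabd2b, a protease that inactivates Wnt ligands, was lower by 0.73 on the log2 scale in treated MR-Cardio than in treated control hearts (adjusted p = 0.0237). Its mean ratio was 0.54 in untreated and 1.05 in treated controls, and 0.225 and 0.32 in MR-Cardio hearts. The list's medians were 0.14 and 0.37. Of 9 other secreted modulators, 0 passed untreated and 1, the inhibitor Wif1, fell with aldosterone (-1.55 ± 0.47, adjusted p = 0.0189), with medians of -0.06 and 0.08.

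Of 19 co-receptors and turnover genes, 2 rose and 0 fell untreated, and 2 rose and 1 fell with aldosterone, fewer in proportion than the 13.6% and 25.1% of all genes, with medians of 0.06 and -0.02. Ror2, a co-receptor of Wnt5a, rose by 0.85 ± 0.17 (adjusted p = 0.00197) and by 1.06 ± 0.18 (adjusted p = 0.000165). Tpbg, an inhibitor at the membrane, rose by 1.22 untreated (adjusted p = 0.0405). Between treated genotypes, the co-receptor Lrp6 was higher in MR-Cardio hearts by 0.27 (adjusted p = 0.0249). Lgr6, an R-spondin receptor, was lower there by 1.62 on the log2 scale (adjusted p = 0.0344). The mean Lgr6 ratio was 0.28 in untreated and 1.78 in treated controls, and 0.65 and 0.16 in MR-Cardio hearts. Of 20 genes of the destruction complex and Dishevelled, 2 rose and 1 fell untreated, and 5 rose and 2 fell with aldosterone (13.6% and 25.1% of all genes), with medians of 0.04 and 0.03. The beta-catenin gene Ctnnb1 fell by 0.24 with aldosterone (adjusted p = 0.0494), Axin1, a scaffold of the complex, fell by 0.20 and 0.18 in the 2 comparisons, and Csnk1a1, a kinase of it, rose by 0.26 and 0.30. Amer1, which recruits the complex to the membrane, rose in both (0.30 and 0.30), and Dact1, Btrc and Csnk1d rose with aldosterone. Of 15 nuclear beta-catenin factors, Bcl9, a coactivator, rose in both (0.63 and 0.59), and Lef1, a partner of beta-catenin on DNA, fell with aldosterone (-0.48).

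Of 17 target genes of beta-catenin, 1 rose untreated, the cell cycle gene Ccnd1 (0.82 ± 0.19, adjusted p = 0.00641), and 4 rose and 1 fell with aldosterone (13.6% and 25.1% of all genes). Those that rose were Myc (1.03), Fosl1 (0.93), Cd44 (0.70) and Nkd1 (0.46), and the one that fell was Lef1, which is also in the nuclear list. Axin2, the gene most used as a readout of the pathway, differed by 0.24 ± 0.26 (adjusted p = 0.604) and 0.66 ± 0.27 (adjusted p = 0.0783) and did not pass. The median over the 17 targets was 0.29 untreated and 0.12 with aldosterone, against -0.01 and -0.04 over all genes. Of 23 planar polarity and calcium genes, 2 fell untreated and 3 rose and 5 fell with aldosterone (13.6% and 25.1% of all genes), with medians of -0.06 and -0.02. Prickle1, a polarity protein, fell by 0.73 with aldosterone (adjusted p = 0.000104) and was the 1 gene of the list that passed for aldosterone in MR-Cardio hearts (-0.48 ± 0.11, adjusted p = 0.0230). Celsr1 and Celsr2, polarity cadherins, fell by 1.38 and 0.47 with aldosterone, and Celsr2 also fell untreated (-0.55). Camk2a, a calcium-dependent kinase, fell in both comparisons (-0.38 and -0.38). It is also among the 9 brain markers of the reference, of which 4 and 5 fell, and the part of the arrays in its fall was not tested. Daam1 fell with aldosterone (-0.30), and Vangl1, Rhoa and Nfatc4 rose with aldosterone by 0.24, 0.20 and 0.45. In the 7 lists, no gene passed in limma for aldosterone in control hearts or for the interaction.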

How the data were processed

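RNA of 23 hearts (Cy5) was hybridised with a common reference (Cy3). The deposited values are log2 ratios. The submitters' processing notes name Agilent Feature Extraction, version 10.7.3.1. Base and direction were read from the values (spike-in span 5.86). The sources used here state neither the background correction nor the within-array normalization. After removal of 56 control probes, 39429 probes remained, 30625 with 1 gene symbol and 8804 unnamed, and probes were averaged to 21892 genes. The 42 members held 49 probes.

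Tests across genes used limma 3.58.1 with R 4.3.3 (lmFit on all 23 arrays, 1 mean per group, eBayes, two-sided, Benjamini-Hochberg adjustment). All groups share 1 estimate of the spread of a gene, and every SE given rests on it. Exact permutation tests used scipy 1.17.1. The fit was checked on simulated data with independent normal noise and the same SD in all groups for each gene. That check does not cover unequal spreads between groups or array differences that follow genotype. Members, lists and naming rule (members called in any comparison, the smallest p-values where under 3 passed, Rspo4, family extremes and list genes called) were chosen with earlier results of these data known. Alternatives were other scalings, probe choices, filters, fits, weights, a replicate block and each mouse left out. Nothing ties same-numbered mice: each has its own animal number.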

Additional observations from a re-analysis of the deposited data

Results flagged for a closer look

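Of 84 group values of 21 named members, 6 held 1 mouse far from the rest of its group, measured by its gap to the nearest other mouse over the group's range. Chance gives about 1 in 20 groups. In untreated controls, Sfrp2 of mouse 1 was -3.69 against -1.46 to -0.75 in the others. In treated controls, Wnt8b of mouse 2 was 0.73 against 0.00 to 0.20. In untreated MR-Cardio mice, Dkk2 of mouse 6 was -4.49 against -3.91 to -3.49, and Fzd10 of mouse 3 was -3.02 against -3.99 to -3.61. In treated MR-Cardio mice, Sfrp1 of mouse 1 was 2.33 against -0.66 to 0.41, and Wnt5a of mouse 5 was -0.43 against -1.06 to -0.90.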

How the results depend on the processing

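The count of called members moved with some choices, and the cause was not tested. Untreated, 4 became 1 without the arrays of low spike-in offset, 7 with each probe on its own and 8 with array quality weights. Leaving out 1 mouse gave 2 to 8: 2 without control 4 or MR-Cardio mouse 7, and 8 without MR-Cardio mouse 2. With aldosterone, 5 became 10 without the arrays of low offset and 3 with the genes of lowest mean ratio left out, where Dkk2 and Fzd1 were no longer tested. Leaving out 1 mouse gave 3 to 8: 3 without control 2 and 8 without MR-Cardio mouse 6. For aldosterone in MR-Cardio hearts, 1 became 0 with the offset as a covariate, without the arrays of low offset, with the compared groups alone and with the genes of lowest mean ratio left out, and 2 with array quality weights. Leaving out 1 mouse gave 0 to 2: 2 without treated mouse 1 or 5, and 0 in 9 of 13 fits. With the sample number as a replicate block, the counts were 9 for the genotypes with aldosterone and 0 for aldosterone in MR-Cardio hearts. Same-numbered mice did not deviate together: over 31 pairs the correlation ran from -0.156 to 0.276 with a median of -0.0127, so the numbers were not taken as pairs. The block also ended the untreated calls of Fzd1 (0.86, adjusted p = 0.0530) and Wnt10b (0.89, adjusted p = 0.0564) and the aldosterone call of Rspo4 (2.02, adjusted p = 0.0955). Fzd1 untreated did not pass with quantile normalization (0.72, adjusted p = 0.0602), the offset as a covariate (0.70, adjusted p = 0.0854) or the pair of groups alone (adjusted p = 0.0755), nor did Wnt10b without the arrays of low offset (0.96, adjusted p = 0.116). No result reversed. The number of arrays limits the precision, and signal over background is unknown.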

Other observations

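Markers of other cells are given here by their calls between genotypes, beside 13.6% of all genes called untreated and 25.1% with aldosterone. Of 10 mural cell markers, 2 rose untreated and 3 with aldosterone, with median differences of 0.17 and 0.21. Of 10 macrophage and leukocyte markers, 0 passed untreated in limma and 1 rose with aldosterone, with medians of 0.41 and 0.45. Of 10 endothelial markers, 1 rose in each comparison, with medians of -0.13 and -0.11. Of 7 atrial muscle markers, 3 fell untreated and 2 with aldosterone, with medians of -0.38 and -0.47. Their mean ratio per mouse was -3.34 to -3.06 in untreated controls, and markers of the reference tissues, also low in ratio, fell in the same comparisons; the part of the arrays in this was not tested. Of 8 endocardium and valve markers, 2 rose untreated, and 2 rose and 1 fell with aldosterone. Of 10 mesothelium and epicardium markers, 1 fell untreated, and 2 rose and 1 fell with aldosterone.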
